A study of Bos taurus with 252 samples.

Results

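The first 3 days after arrival at a feedlot were followed in the blood of 42 healthy crossbred steers, each sampled on day 0 and again on day 3. The libraries labelled day 0 and day 3 were taken for every steer, which gave 84 libraries, 2 of the 6 sampling days of each animal, and each day 3 library was compared with the day 0 library of the same animal. The steers formed 7 groups of 6. Negative control steers (NC) received no antimicrobial, and each of the other groups received a drug as a single subcutaneous dose on day 0, after that day's blood had been drawn. These drugs were the macrolides tulathromycin (TULA) and tildipirosin (TILD), the cephalosporin ceftiofur (CEFT), the fluoroquinolone enrofloxacin (ENRO), the phenicol florfenicol (FLOR) and the tetracycline oxytetracycline (OXYT). All steers, NC included, had been given tildipirosin, a trenbolone acetate and estradiol implant, vaccines and antiparasitic drugs at an earlier grow yard, and all had spent the night before day 0 together in a single pen on hay and a starter diet. From day 0 on, each group had its own pen, and on day 3 the groups passed the chute in a fixed order that began with NC and ended with OXYT. Pen, place in that order and treatment therefore cannot be told apart, and a change shared by all groups cannot be told apart from time since transport, feeding, handling or the date of sampling, because no steer was sampled without these.

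Blood RNA comes mainly from leukocytes, with additions from platelets and young red cells. Transport and mixing raise circulating cortisol in cattle, and glucocorticoids are known to release neutrophils into the blood, to hold lymphocytes and eosinophils out of it, and to switch on a set of target genes that includes inhibitors of glucose oxidation and of inflammatory signalling. Feed restriction, in turn, is known to raise genes of fatty acid oxidation and to lower those of sterol and fatty acid synthesis. In whole blood, fewer cells of a type and less RNA per cell cannot be told apart.

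The values analysed were counts per gene, which estimate reads from the coverage of assembled transcripts. They are given below as CPM, counts brought to a common library size after TMM scaling, which compares a gene between libraries and not with other genes of different length. Library totals were 28.2 to 54.7 M counts (median 45.03) on day 0 and 30.5 to 56.3 M (median 41.5) on day 3. Hemoglobin transcripts, which mark red cells, took 0.00405% to 4.04% of a day 0 library (median 0.224%) and 0.0214% to 25.5% of a day 3 library (median 0.623%). Their share was higher on day 3 in 31 of 42 steers, with a mean log2 ratio of 1.76 ± 2.95 (SD, adjusted p = 0.0003 over 5 library measures, sign-flip permutation test). The group medians were higher on day 3 in 6 groups, while that of OXYT was 0.173% on day 0 and 0.0881% on day 3. The share of counts from mitochondrial DNA had a median of 2.44% on day 0 and 2.93% on day 3 and was also higher in 31 of 42 steers (adjusted p = 0.00173, permutation test). This share includes the gene COX3, which was below 50 CPM in 29 steers on day 0 and in 19 on day 3. The share without COX3 was not tested. The highest hemoglobin share was that of the day 3 library of steer Tild3. Without this steer the mean log2 hemoglobin ratio was 1.55. Defining markers of blood cells were present in the libraries, with lowest levels of 350.1 CPM for CD3E of T cells, 110.1 CPM for MS4A1 of B cells and 646 CPM for LYZ of monocytes over both days.

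**Figure D1:**
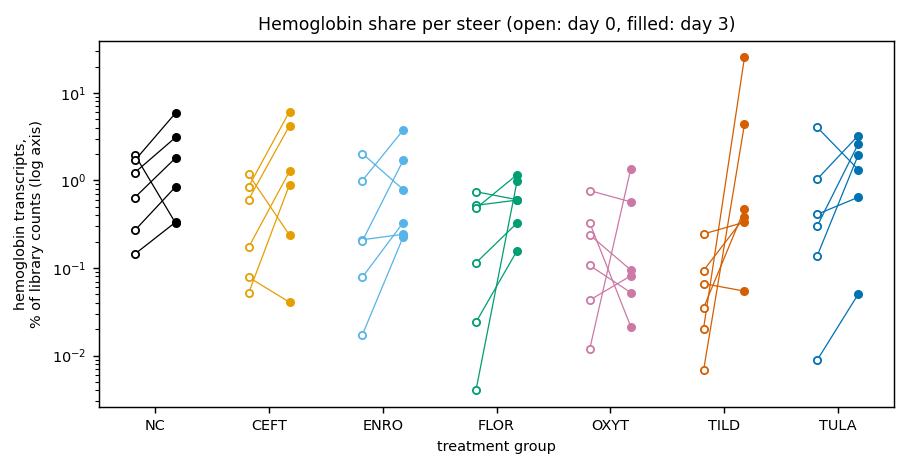
Hemoglobin transcripts as a percentage of the counts of each library (log axis) on day 0 (open points) and day 3 (filled points), with a line for each of the 6 steers in each group. The share lay higher on day 3 in 31 of 42 steers, and the highest point, 25.5%, is the day 3 library of steer Tild3 in the TILD group.

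The change from day 0 to day 3, averaged over the 7 groups, differed from 0 in 7552 of 19056 genes tested (39.6%) at an FDR of 0.05 by edgeR's quasi-likelihood test with steer as a block. Of these DEGs, 3782 rose (19.8% of the genes tested) and 3770 fell (19.8%). Most shifts were small. The absolute log2 change of a DEG had a median of 0.20, with 10% of DEGs below 0.10 and 10% above 0.48, while the median log2 change of all genes tested was 0.01. An absolute log2 change of at least 0.5 was reached by 683 DEGs (9.04%) and of at least 1 by 157.

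Of the 7552 DEGs, 4212 (22.1% of the genes tested) had the same sign in all 7 groups. Among them, 2086 (10.9%) were higher and 2126 (11.2%) lower on day 3. The DEGs were called on the mean of these same 7 group changes, so this agreement in sign is a description. At the level of animals, 1372 genes (7.2%) moved in the same direction in at least 36 of 42 steers. A difference between the 7 groups in the size of the change was found for 0 genes (0.0%) at an FDR of 0.05, and the smallest FDR was 0.233. At an unadjusted p below 0.05 there were 1915 genes. Other tools did call genes for this difference, 149 by DESeq2, 47 by edgeR's likelihood ratio test, 37 in a fit of all sampling days and 19 by limma voom.

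The shared change was next read in each group. These are counts of calls and no test of a difference between groups. Tested alone in the same fit, CEFT had 4259 DEGs (22.3%), FLOR 1620 (8.5%), TILD 1409 (7.39%), TULA 1295 (6.8%), ENRO 878 (4.61%), OXYT 143 (0.75%) and NC 3 (0.0157%). The 3 NC genes were SLC28A3, a nucleoside transporter (log2 change in NC -1.90), INSIG1, which holds back the activation of sterol synthesis (0.52), and LRRC63 (-1.03), named here after their values were seen. Direction was shared more widely than these counts. For each group in turn, DEGs were called from the other 6 groups and their direction was read in the group left out. In NC, 72.5% of 7414 such genes had the same direction, with a median log2 change of 0.07 along it against 0.23 in the other groups. The share was 83.2% in OXYT, 91.4% in FLOR, 92.1% in TULA, 93.3% in CEFT, 93.3% in ENRO and 94.6% in TILD. Genes of the same 6 steers are not independent of each other, so these shares are a description and were not set against chance. The mean change of the 6 antimicrobial groups differed from that of NC in 19 genes (0.0997%) at an FDR of 0.05 and in 2258 (11.8%) at an unadjusted p below 0.05. That contrast was chosen after the counts per group were seen.

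Single steers varied around this pattern. Read against the DEGs of the 6 groups to which it did not belong, a steer shared the direction of 46.7% to 91.8% of genes (median 75.3%), and 39 of 42 steers shared more than 50%. The lowest shares were those of steers Flor4 (46.7%), Enro10 (47.7%) and NC5 (48.4%). The highest was that of Flor10 (91.8%), so a group could hold steers from both ends of the range. Each steer had both libraries on the same sequencing lane, but lanes were tied to groups, with all NC and ENRO steers on lane 1. Within lanes of 14 steers each, 1116, 4720 and 4501 genes were called on lanes 1, 2 and 3, and 95.9%, 99.8% and 99.1% of the pooled DEGs had the pooled sign there, shares that are a description, since the steers of each lane took part in the pooled calls. A difference of the change between lanes was called for 0 genes at an FDR of 0.05 and for 1543 at an unadjusted p below 0.05 by the same test.

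**Figure D2:**
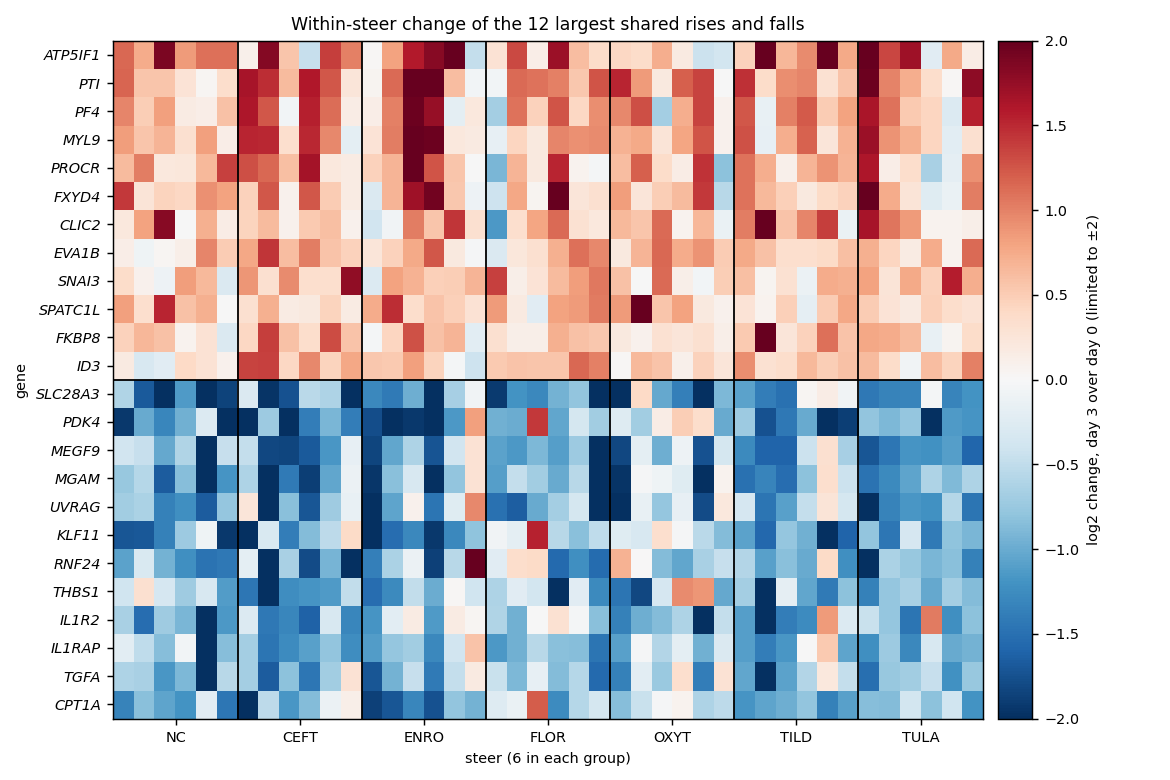
Change in log2 CPM from day 0 to day 3 (color, limited to a range of 2 either way) of the 12 largest shared rises and 12 largest shared falls, with genes in rows and the 42 steers in columns by group. These genes were chosen for a change in the same direction in at least 36 of 42 steers, and in all 7 groups some cells show the opposite color.

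The largest falls that were shared by all 7 groups and by at least 36 steers are described next, followed by the largest rises, for the 12 genes with the largest change in each direction, after 2 and 3 identifiers without a gene name were passed over. Of the genes tested, 706 met these conditions for falls and 457 for rises, and since they were selected for agreement among steers, that agreement is a description. Changes are log2 changes between the days, given with their standard errors. SLC28A3, a sodium-coupled carrier of nucleosides, was at 21.2 to 294 CPM (median 89.9) on day 0 and 14.2 to 104 CPM (median 37.5) on day 3. It fell by 57.98% (log2 change -1.25 ± 0.13, FDR 1.49e-09) and was lower in 39 of 42 steers. Its ranges on both days overlapped, although the median steer of day 3 lay in the lower part of the day 0 range. PDK4, the kinase that shuts down pyruvate dehydrogenase and so glucose oxidation, was at 4.88 to 62.2 CPM (median 23.96) on day 0 and 2.54 to 38.3 CPM (median 11.2) on day 3. It fell in the pooled test (log2 change -1.11 ± 0.13, FDR 2.02e-08), being lower in 37 of 42 steers. CPT1A, the enzyme that admits long-chain fatty acids to mitochondria, was at 30.8 to 163 CPM (median 97.1) on day 0 and 22.5 to 114 CPM (median 53.3) on day 3. It fell as well (log2 change -0.81 ± 0.08, FDR 8.24e-10) and was lower in 39 of 42 steers, so a brake on glucose use and a gate of fat burning declined side by side.

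The other genes of this set are described by their known roles. MGAM, a maltase that bovine and human neutrophils carry at their surface, was at 3.43 to 44.6 CPM (median 12.3) on day 0 and 1.40 to 22.6 CPM (median 6.38) on day 3, and it fell (log2 change -1.03 ± 0.13, FDR 3.75e-08). IL1R2, a decoy receptor that soaks up interleukin-1, was at 5.08 to 87.5 CPM (median 13.03) on day 0 and 3.49 to 33.7 CPM (median 7.19) on day 3. Its log2 change was -0.83 ± 0.13 (FDR 1.25e-06). IL1RAP, the co-receptor that interleukin-1 needs to signal, was at 7.79 to 56.2 CPM (median 21.997) on day 0 and 4.17 to 35.4 CPM (median 11.7) on day 3 and was lower in 40 of 42 steers (log2 change -0.82 ± 0.09, FDR 6.36e-09). Decoy and co-receptor thus moved in the same direction. TGFA, a ligand of the epidermal growth factor receptor, changed by -0.81 ± 0.10 (FDR 2.97e-08). THBS1, the platelet and monocyte adhesion protein thrombospondin-1, changed by -0.83 ± 0.11 (FDR 1.79e-07). The remaining large shared falls were MEGF9, a membrane protein with EGF-like domains (log2 change -1.05 ± 0.11, FDR 1.87e-09), UVRAG, which acts in autophagy (log2 change -0.93 ± 0.12, FDR 1.01e-07), the transcription factor KLF11 (log2 change -0.92 ± 0.11, FDR 7.88e-09) and the ring finger protein gene RNF24 (log2 change -0.85 ± 0.15, FDR 1.36e-05).

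The largest shared rises were smaller than the falls. ATP5IF1, which encodes the inhibitor of mitochondrial ATP synthase, was at 32.5 to 334 CPM (median 79.1) on day 0 and 45.6 to 1302 CPM (median 146) on day 3. It rose by 87.97% (log2 change 0.91 ± 0.15, FDR 3.42e-06) and was higher in 37 of 42 steers. PTI, a trypsin inhibitor from a family of similar genes whose counts may not be fully separated, was higher in 39 of 42 steers (log2 change 0.87 ± 0.10, FDR 7.38e-09). PF4, the platelet chemokine, was at 56.2 to 905 CPM (median 251) on day 0 and 172 to 1126 CPM (median 466) on day 3 and was higher in 36 steers (log2 change 0.73 ± 0.11, FDR 6.60e-07). MYL9, a myosin light chain of platelets and smooth muscle, was at 66.4 to 446 CPM (median 161) on day 0 and 112 to 659 CPM (median 282) on day 3 and was higher in 38 steers (log2 change 0.71 ± 0.09, FDR 7.63e-08). For PF4 and MYL9 the ranges on the 2 days overlapped. PROCR, the protein C receptor, rose by 0.60 ± 0.11 (FDR 1.58e-05) on the log2 scale. ID3, which blocks helix-loop-helix transcription factors in lymphocytes, was at 13.03 to 68.8 CPM (median 41.99) on day 0 and 17.2 to 117 CPM (median 56.6) on day 3 and was higher in 37 steers (log2 change 0.48 ± 0.05, FDR 1.63e-09). The other rises in this set were FXYD4 (log2 change 0.60 ± 0.10, FDR 9.60e-06), a regulator of the sodium pump, CLIC2 (log2 change 0.58 ± 0.11, FDR 3.41e-05), a chloride channel protein, EVA1B (log2 change 0.55 ± 0.06, FDR 3.47e-09), SNAI3 (log2 change 0.54 ± 0.07, FDR 9.20e-08), a zinc finger repressor, SPATC1L (log2 change 0.52 ± 0.07, FDR 6.95e-08) and FKBP8 (log2 change 0.49 ± 0.07, FDR 7.32e-07), a binding protein of the FK506 family.

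**Figure D3:**
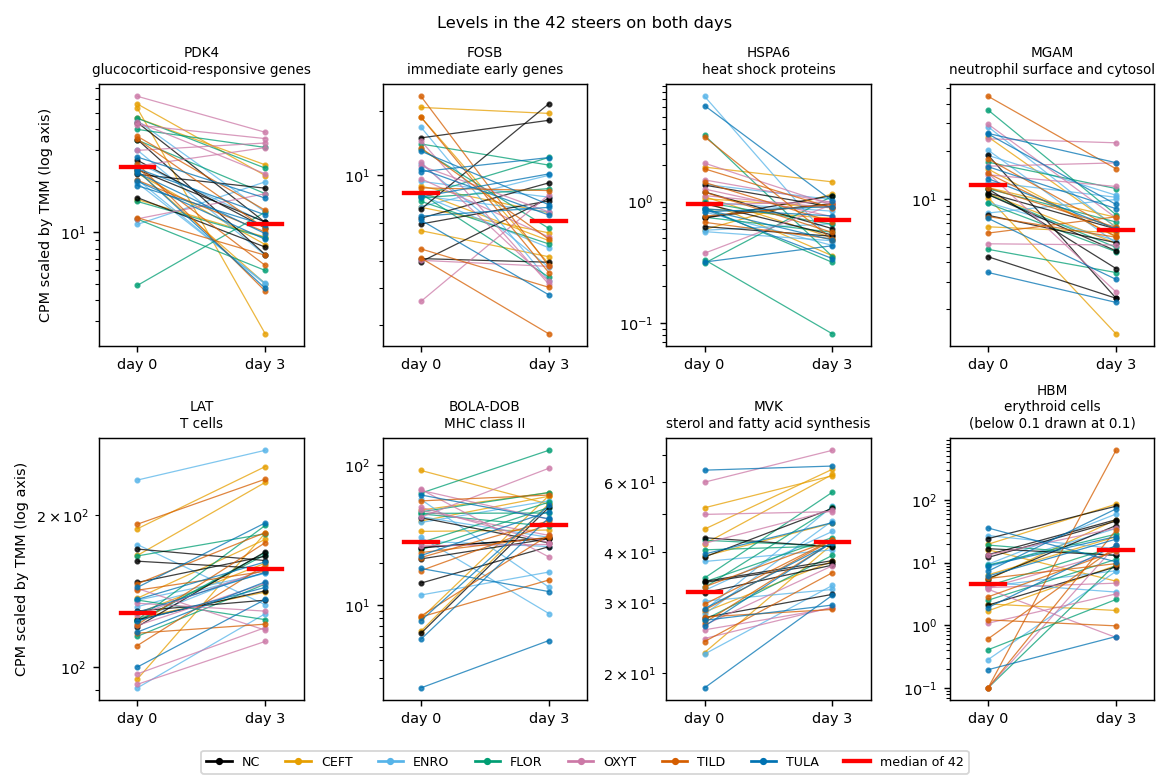
CPM (log axes) of 8 genes in all 42 steers on day 0 and day 3, with a line for each steer colored by group and red bars at the medians; in the HBM panel values below 0.1 are drawn at 0.1. PDK4, FOSB, HSPA6 and MGAM lay lower on day 3 at the median, and LAT, BOLA-DOB, MVK and HBM higher, while single steers crossed the trend in every panel.

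Genes that glucocorticoids are known to induce fell in most members of their list. Of 25 members tested, 18 fell (72%, against 19.8% of all genes tested) and 1 rose, and the median log2 change of the members was -0.26, against 0.01 for all genes. Their summed level was 3095 to 9876 CPM (median 5391) on day 0 and 2533 to 7192 CPM (median 4177) on day 3, and it was lower on day 3 in 34 of 42 steers. Besides PDK4 and IL1R2, the largest falls were those of SGK1 and TXNIP. SGK1, a kinase of salt and stress signalling, was at 68.3 to 304 CPM (median 140.1) on day 0 and 52.6 to 226 CPM (median 102) on day 3. It was lower in 37 steers (log2 change -0.54 ± 0.06, FDR 2.56e-09). TXNIP, which binds thioredoxin and limits glucose uptake, was at 798 to 3359 CPM (median 1731) on day 0 and 696 to 2339 CPM (median 1257) on day 3 and was lower in 35 steers (log2 change -0.48 ± 0.06, FDR 7.96e-08). Classical targets did not all pass the test. FKBP5, a chaperone of the glucocorticoid receptor, had a log2 change of -0.17 ± 0.12 (FDR 0.280), and DDIT4, an inhibitor of mTOR signalling, of 0.06 ± 0.12 (FDR 0.746).

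The mean change in PDK4 varied in size between groups, but this difference did not pass the test. The mean within-steer change in log2 CPM was -1.82 ± 1.34 (SD, n = 6) in CEFT, -1.54 ± 0.63 in TILD, -1.35 ± 1.12 in ENRO, -1.29 ± 0.71 in NC, -1.17 ± 0.57 in TULA, -0.44 ± 0.94 in FLOR and -0.16 ± 0.60 in OXYT. PDK4 was lower in all 6 steers of NC, CEFT, TILD and TULA, in 5 of 6 in FLOR and ENRO, and in 3 of 6 in OXYT. The edgeR test of a difference between groups gave an unadjusted p of 0.0286 and an FDR of 0.443. The median change of the whole glucocorticoid list ranged from -0.55 in CEFT to -0.01 in ENRO and was -0.08 in NC. With the hemoglobin share as a covariate, 11 members fell in place of 18.

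Lipid metabolism moved in both directions, by pathway. Of 24 genes of sterol and fatty acid synthesis, 17 rose (70.8%, against 19.8%) and 1 fell, with a median log2 change of 0.20. Their summed level, 1175 to 1920.4 CPM (median 1531) on day 0 and 1459 to 2089 CPM (median 1705) on day 3, was higher on day 3 in 37 of 42 steers. MVK, the mevalonate kinase of the sterol pathway, was at 18.4 to 64.2 CPM (median 31.9) on day 0 and 28.8 to 71.9 CPM (median 42.4) on day 3. It was higher in 40 of 42 steers (log2 change 0.38 ± 0.04, FDR 1.13e-09), and its mean change per group lay between 0.18 ± 0.15 in NC and 0.49 ± 0.23 in CEFT (SD, n = 6). SCD, the desaturase that makes monounsaturated fatty acids, was at 13.1 to 52.3 CPM (median 29.3) on day 0 and 23.6 to 57.8 CPM (median 36.2) on day 3 and was higher in 34 steers (log2 change 0.32 ± 0.06, FDR 1.38e-05). FDPS, which makes farnesyl diphosphate, rose by 0.30 ± 0.08 (FDR 0.00266). MSMO1, a demethylase of late sterol synthesis, rose by 0.26 ± 0.04 (FDR 3.20e-06). Fitted without the steer block, 11 members rose. The squalene synthase gene FDFT1 did not pass the test at 0.18 ± 0.08 (FDR 0.0595), nor did SC5D at 0.02 ± 0.04 (FDR 0.649).

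The genes of fatty acid oxidation did not share a direction. Of 21 members, 7 fell (33.3%, against 19.8%), led by PDK4 and CPT1A, and 3 rose, and the median log2 change was -0.02. The members that rose were of smaller size, such as ECI2, an isomerase of the pathway (log2 change 0.30 ± 0.06, FDR 0.000107), and ETFB, an electron carrier (log2 change 0.17 ± 0.04, FDR 0.000246). The long-chain dehydrogenase gene ACADVL had a log2 change of -0.02 ± 0.03 (FDR 0.619) and HADHA, of the trifunctional protein, 0.06 ± 0.03 (FDR 0.0582). The falls in this list were thus largest at PDK4, a brake on glucose oxidation, and CPT1A, which acts ahead of the cycle. The enzymes of the cycle named here changed by less than 0.5.

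Immediate early genes, which respond to signals within minutes, fell more often than they rose. Of 24 members, 14 fell (58.3%, against 19.8%) and 3 rose, with a median log2 change of -0.25, and the summed level was lower in 32 of 42 steers. KLF6, a Krüppel-like transcription factor, was at 165 to 417 CPM (median 269) on day 0 and 117 to 338 CPM (median 182) on day 3. It was lower in 40 of 42 steers (log2 change -0.53 ± 0.05, FDR 2.97e-10). FOSL2, a subunit of the AP-1 factor, was at 99.5 to 361 CPM (median 169.6) on day 0 and 68.97 to 202 CPM (median 113) on day 3 and was lower in 39 steers (log2 change -0.53 ± 0.05, FDR 3.69e-10). The stress factor ATF3 fell by 0.50 on the log2 scale (log2 change -0.50 ± 0.07, FDR 9.13e-08). FOSB, another AP-1 subunit, was at 2.59 to 23.4 CPM (median 8.29) on day 0 and 1.83 to 21.6 CPM (median 6.10) on day 3 and fell in the pooled test (log2 change -0.54 ± 0.14, FDR 0.00208). NC stood on the other side for this gene. FOSB was higher on day 3 in 5 of 6 NC steers, with a mean change of 0.62 ± 0.60 (SD), while the means of the other groups lay between -1.37 ± 1.002 in TILD and -0.33 ± 0.64 in TULA. The difference between groups had an unadjusted p of 0.0289 and an FDR of 0.443 by edgeR's quasi-likelihood test. KLF2 (log2 change 0.07 ± 0.03, FDR 0.0616) and JUND (log2 change 0.09 ± 0.04, FDR 0.0803), which are abundant in resting lymphocytes, did not pass the test.

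Heat shock proteins and their co-chaperones, which keep proteins folded under stress, fell in most members too. Of 19 members, 13 fell (68.4%, against 19.8%) and 1 rose, with a median log2 change of -0.19. The summed level was 2693 to 7416 CPM (median 3553) on day 0 and 2599 to 3696 CPM (median 3196) on day 3, so its upper end dropped from day 0 to day 3. HSP90AA1, the inducible HSP90, was at 424 to 1036 CPM (median 631) on day 0 and 359.8 to 719 CPM (median 518) on day 3 and was lower in 39 of 42 steers (log2 change -0.32 ± 0.04, FDR 2.05e-08). HSPH1, which recharges HSP70, was at 27.3 to 154 CPM (median 40.2) on day 0 and 19.9 to 41.6 CPM (median 31.7) on day 3 and was also lower in 39 steers (log2 change -0.52 ± 0.08, FDR 6.20e-07). CHORDC1, a co-chaperone of HSP90, was lower in 38 steers (log2 change -0.34 ± 0.04, FDR 4.92e-08). HSPA6, an inducible HSP70, was at 0.311 to 7.37 CPM (median 0.953) on day 0 and 0.0814 to 1.45 CPM (median 0.704) on day 3. It fell by 0.65 on the log2 scale (log2 change -0.65 ± 0.18, FDR 0.00299), and its mean change per group lay below 0 in all 7, from -0.99 ± 0.99 in TILD to -0.24 ± 0.82 in OXYT (SD, n = 6). The small chaperone HSPB1 (log2 change 0.07 ± 0.05, FDR 0.366) and the main inducible HSP70 gene HSPA1A (log2 change -0.24 ± 0.13, FDR 0.145) did not pass the test, and HSPA1A shares sequence with near-identical copies.

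Myeloid markers did not move as a block. Of 15 neutrophil surface and cytosol genes, 8 fell (53.3%, against 19.8%) and 1 rose, with a median log2 change of -0.27 and a summed level that was lower in 29 of 42 steers. CXCR1, the receptor for interleukin-8, was at 109 to 716 CPM (median 323) on day 0 and 71.4 to 446 CPM (median 248) on day 3. It fell in the pooled test (log2 change -0.52 ± 0.10, FDR 4.96e-05). PTAFR, the receptor for platelet-activating factor, was at 169 to 780.2 CPM (median 304) on day 0 and 129 to 575 CPM (median 241) on day 3 and fell as well (log2 change -0.42 ± 0.07, FDR 7.96e-06). C5AR1, a complement receptor, had a log2 change of -0.38 ± 0.22 (FDR 0.168) and did not pass the test. For MGAM, the leading gene of this list, mean changes per group lay between -1.33 ± 0.89 in NC and -0.79 ± 1.13 in OXYT (SD, n = 6), and the difference between groups had an FDR of 0.983 by edgeR's quasi-likelihood test.

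Genes for neutrophil granule proteins, which are transcribed in young neutrophils of the marrow, were counted apart. Of 21 members, 0 rose and 1 fell, against 19.8% of all genes either way, so these genes were called less often than genes in general. The member that fell was the gelatinase MMP9 (log2 change -0.44 ± 0.12, FDR 0.00203), while the median log2 change of the list was 0.21. Elastase, ELANE, was at 90.5 to 906 CPM (median 481) on day 0 and 74.2 to 1143 CPM (median 573) on day 3, with a log2 change of 0.34 ± 0.17 (FDR 0.1001). Its change did not pass the test, and list medians ran from -0.59 in ENRO to 0.86 in NC. Of 15 monocyte genes, 3 fell (20%) and 1 rose, with a median of -0.08, and the share that fell was close to that of all genes (19.8%). VCAN, a matrix proteoglycan of classical monocytes, was at 47.6 to 258 CPM (median 104) on day 0 and 23.8 to 207 CPM (median 62.6) on day 3 and was lower in 38 of 42 steers (log2 change -0.72 ± 0.08, FDR 7.32e-09). CD163, the scavenger receptor for hemoglobin and a known glucocorticoid target, fell by 0.47 on the log2 scale (log2 change -0.47 ± 0.10, FDR 0.000161). CX3CR1, the fractalkine receptor, fell by 0.21 (log2 change -0.21 ± 0.03, FDR 5.50e-06). MS4A7, by contrast, was at 44.2 to 178 CPM (median 88.6) on day 0 and 58.6 to 249.8 CPM (median 119) on day 3 and was higher in 37 steers (log2 change 0.40 ± 0.06, FDR 9.42e-07). LYZ, the lysozyme gene (log2 change 0.10 ± 0.07, FDR 0.264), and MPEG1, the perforin-2 gene (log2 change -0.08 ± 0.07, FDR 0.355), did not pass the test, so VCAN and CD163 fell while these abundant transcripts of the same cells did not pass the test.

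**Figure D4:**
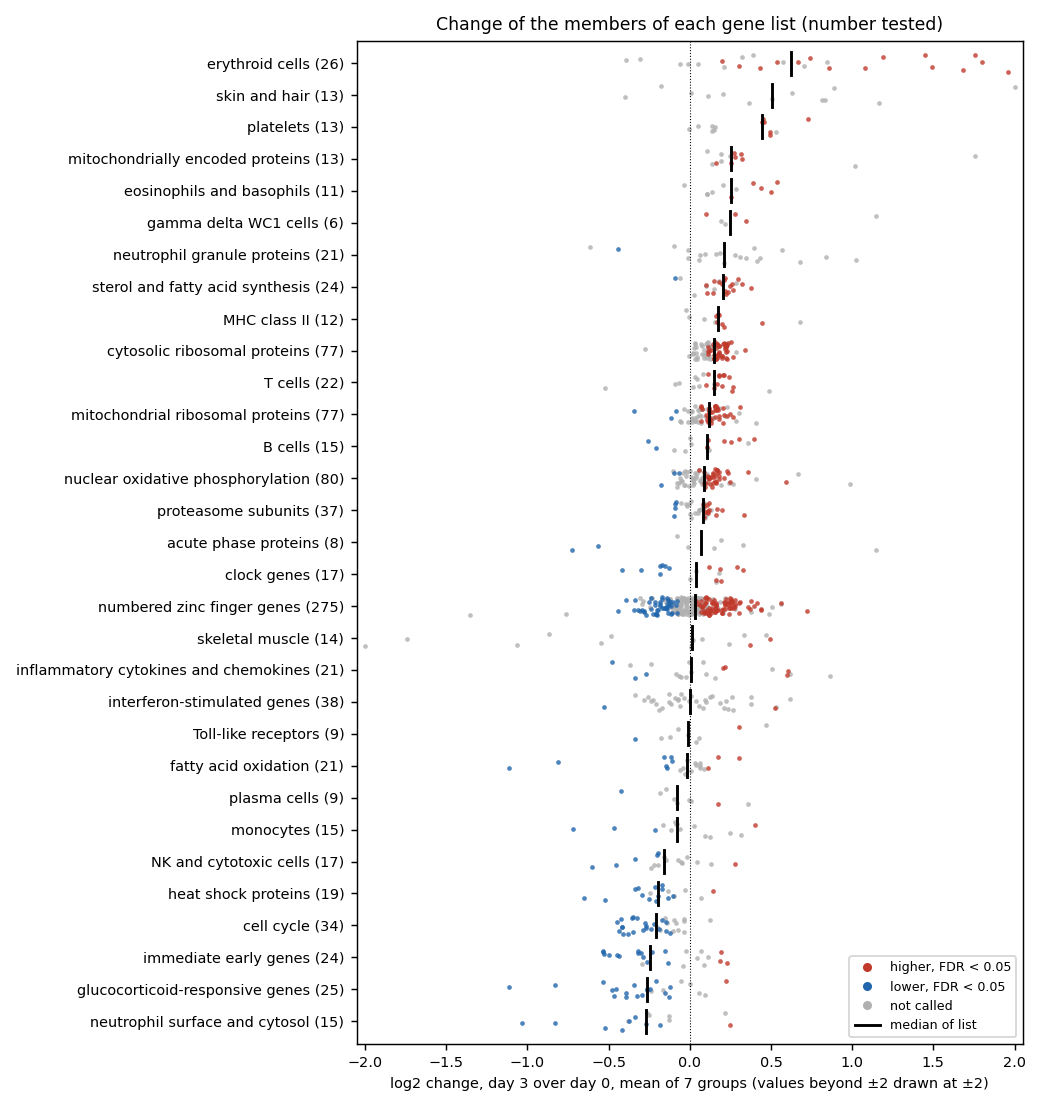
Log2 change from day 0 to day 3 (mean of the 7 groups) of every tested member of 31 gene lists, with the number of members in brackets, red and blue points for DEGs that rose or fell, grey points for genes that did not pass the test and black bars at list medians. List medians ran from -0.27 for neutrophil surface and cytosol to 0.62 for erythroid cells, and members of most lists lay on both sides of 0.

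Of 22 T-cell genes, 12 rose (54.5%, against 19.8% of all genes) and 0 fell, the median log2 change was 0.15, and the summed level, 2985 to 6042 CPM (median 3867) on day 0 and 2966 to 6909 CPM (median 4458) on day 3, was higher in 35 of 42 steers. The changes of its named members were small beside those of MGAM or VCAN. CD3E, a chain of the T-cell receptor complex, was at 350.1 to 925 CPM (median 600.2) on day 0 and 457 to 1305 CPM (median 726) on day 3. It was higher in 35 steers (log2 change 0.24 ± 0.04, FDR 2.50e-06). CD247, the zeta chain of that complex, was at 183 to 506 CPM (median 288) on day 0 and 199 to 664 CPM (median 337) on day 3 and was higher in 38 steers (log2 change 0.26 ± 0.03, FDR 2.47e-08). LAT, the adaptor that links the receptor to its signalling enzymes, was at 90.8 to 235 CPM (median 128) on day 0 and 112 to 269 CPM (median 156) on day 3 and was higher in 36 steers (log2 change 0.26 ± 0.04, FDR 2.01e-07). The mean LAT change was above 0 in each group, from 0.13 ± 0.21 in NC to 0.46 ± 0.27 in CEFT (SD, n = 6). CCR7, the homing receptor of naive T cells, rose by 0.21 ± 0.07 (FDR 0.0193). ZAP70 (log2 change 0.04 ± 0.03, FDR 0.328), the kinase of the receptor, and IL7R (log2 change 0.03 ± 0.07, FDR 0.807), the interleukin-7 receptor, did not pass the test. Without the steer block 7 T-cell genes rose.

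Gamma delta T cells that carry WC1 are abundant in young cattle. Of 6 genes tested for them, 3 rose (50%, against 19.8%) and 0 fell. WC1.3, a member of the scavenger receptor family that names these cells, was at 22.5 to 459 CPM (median 112) on day 0 and 28.03 to 529 CPM (median 132) on day 3 and was higher in 39 of 42 steers (log2 change 0.35 ± 0.05, FDR 2.78e-07). WC1-12 was higher in 35 steers (log2 change 0.28 ± 0.05, FDR 2.39e-05). GATA3, a transcription factor shared with other T cells, rose by 0.10 ± 0.04 (FDR 0.0395). WC1 genes are similar in sequence, and the counting could have split reads between them, so single members are uncertain. The summed level of the list was higher in 39 of 42 steers, but 0 of its members passed the test without the steer block.

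B-cell genes were mixed, with 6 of 15 members higher (40%, against 19.8%) and 2 lower (13.3%). BLK, a kinase of B-cell receptor signalling, was at 39.1 to 292 CPM (median 127) on day 0 and 49.3 to 389.9 CPM (median 171) on day 3 and was higher in 39 of 42 steers (log2 change 0.40 ± 0.04, FDR 9.93e-10). CD79B, a chain of the receptor, was at 78.8 to 457 CPM (median 266) on day 0 and 83.5 to 593 CPM (median 313) on day 3 and was higher in 34 steers (log2 change 0.25 ± 0.05, FDR 4.13e-05). CD22, an inhibitory co-receptor, rose by 0.30 ± 0.09 (FDR 0.00898). PAX5, the factor that maintains B-cell identity, fell by 0.26 on the log2 scale (log2 change -0.26 ± 0.06, FDR 0.000238). MS4A1, which encodes CD20, was at 142 to 728 CPM (median 441) on day 0 and 110.1 to 785 CPM (median 435) on day 3, with a log2 change of 0.00 ± 0.05 (FDR 1), so the medians of this surface marker of B cells were close on both days. Without the steer block 1 B-cell gene rose and 0 fell. Among 9 plasma cell genes, 1 rose and 1 fell, against 19.8% of all genes either way, so the list was called less often than genes in general. The member that rose was DERL3 of the secretory pathway (log2 change 0.18 ± 0.04, FDR 0.00169). The member that fell was the factor PRDM1 (log2 change -0.42 ± 0.06, FDR 6.97e-07), which T cells and monocytes also use. The joining chain gene JCHAIN had a log2 change of -0.15 ± 0.13 (FDR 0.413).

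Class II histocompatibility genes, which present antigen to helper T cells, rose in 7 of 12 members (58.3%, against 19.8%), and 0 fell. The median log2 change was 0.17, and each group's median lay above 0, from 0.12 in TULA to 0.26 in FLOR. CD74, the invariant chain, was at 2266 to 8429 CPM (median 5186) on day 0 and 2556 to 12629 CPM (median 6076) on day 3 and was higher in 31 of 42 steers (log2 change 0.18 ± 0.04, FDR 0.000857). CIITA, the master regulator of the class, was at 129.6 to 487 CPM (median 249) on day 0 and 141 to 545 CPM (median 297) on day 3 and was higher in 35 steers (log2 change 0.20 ± 0.03, FDR 3.21e-06). BOLA-DMB, which helps to load peptides, was higher in 35 steers (log2 change 0.21 ± 0.03, FDR 5.72e-06). BOLA-DOB was at 2.54 to 91.9 CPM (median 28.3) on day 0 and 5.55 to 128 CPM (median 37.2) on day 3. Its change had a wide error (log2 change 0.45 ± 0.18, FDR 0.0411), with means per group from -0.58 ± 1.14 in ENRO to 1.11 ± 1.51 in TULA (SD, n = 6), and its sign was therefore not shared by all groups. The genes BOLA-DQB (log2 change -0.02 ± 0.15, FDR 0.935) and BOLA-DMA (log2 change 0.16 ± 0.23, FDR 0.643) did not pass the test. Class II genes vary in sequence between animals, which can move their counts. Without the steer block 1 member rose.

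Natural killer and cytotoxic cells were read from 17 genes. Of these, 5 fell (29.4%, against 19.8%) and 1 rose, with a median log2 change of -0.16. NCR1, the activating receptor NKp46 that marks natural killer cells, was at 76.3 to 513 CPM (median 155) on day 0 and 53.7 to 568 CPM (median 118) on day 3. It was lower in 39 of 42 steers (log2 change -0.46 ± 0.05, FDR 1.14e-09). KLRD1, the CD94 chain of their lectin receptors, was at 22.9 to 219.6 CPM (median 42.8) on day 0 and 4.35 to 232 CPM (median 33.8) on day 3 and was lower in 37 steers (log2 change -0.60 ± 0.08, FDR 2.80e-07). CD244, a receptor of the same cells, was lower in 36 steers (log2 change -0.34 ± 0.04, FDR 3.44e-08). The killing granule gene GZMB rose by 0.28 ± 0.11 (FDR 0.0396) but by 0.24 ± 0.10 without steer Tild3, which did not pass the test (FDR 0.0628, with 0.0199 to 0.721 over the 19 alternatives), and CCL5 (log2 change -0.05 ± 0.07, FDR 0.672) and TBX21 (log2 change -0.02 ± 0.04, FDR 0.810), which T cells share, did not pass the test. The surface receptors named here fell. Granule genes did not share a direction, since the perforin gene PRF1, named here outside the rules, fell in the pooled test. It was lower in 31 of 42 steers (log2 change -0.20 ± 0.05, FDR 0.00206). Without the steer block, and with the hemoglobin covariate, 3 members fell.

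Eosinophil and basophil genes rose in 5 of 11 members (45.5%, against 19.8%), with 0 falling, a median log2 change of 0.25 and a summed level that was higher in 37 of 42 steers. ALOX15, the lipoxygenase of eosinophils, was at 2.31 to 107 CPM (median 12.9) on day 0 and 1.69 to 114 CPM (median 20.5) on day 3, a wide spread between animals. It was higher in 33 steers (log2 change 0.54 ± 0.11, FDR 0.000106), but its change was -0.42 in OXYT and -0.13 in TULA. Of the 5 members that rose, CCR3 had the same sign in all 7 groups and the others did not. CCR3, the eotaxin receptor, was at 9.50 to 98.7 CPM (median 33.6) on day 0 and 20.5 to 100.3 CPM (median 43.3) on day 3 and was higher in 34 steers (log2 change 0.39 ± 0.09, FDR 0.000535). SMPD3 (log2 change 0.50 ± 0.11, FDR 0.000251), a sphingomyelinase, and the mast cell and basophil protease CPA3 (log2 change 0.44 ± 0.13, FDR 0.00683) rose as well, at low levels. GATA2 (log2 change 0.29 ± 0.14, FDR 0.0959) and FCER1A (log2 change 0.10 ± 0.09, FDR 0.405) did not pass the test, and 0 members passed it without the steer block and 3 with the hemoglobin covariate.

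Platelet genes rose in 6 of 13 members (46.2%, against 19.8%) with a median log2 change of 0.44. Besides PF4, the members that rose included PPBP, a chemokine precursor of platelet granules (log2 change 0.50 ± 0.15, FDR 0.00608), and ITGB3, the integrin that binds fibrinogen. ITGB3 was at 45.7 to 357 CPM (median 126) on day 0 and 72.5 to 363 CPM (median 191) on day 3 and was higher in 32 of 42 steers (log2 change 0.46 ± 0.10, FDR 0.000369). TUBB1, the platelet tubulin (log2 change 0.14 ± 0.10, FDR 0.310), and F13A1, a clotting factor gene that monocytes also express (log2 change 0.05 ± 0.05, FDR 0.468), did not pass the test. The list median was above 0 in 6 groups, with 0.62 in OXYT as the highest, and -0.06 in TULA.

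Erythroid genes had the highest list median. Of 26 members, 15 rose (57.7%, against 19.8%) and 0 fell, with a median log2 change of 0.62. HBM, the mu globin of young red cells, was at 0 to 35.8 CPM (median 4.55) on day 0 and 0.639 to 624 CPM (median 16.1) on day 3. It was higher in 33 of 42 steers (log2 change 1.96 ± 0.41, FDR 0.000166). Its highest level was that of steer Tild3 on day 3, and the mean change per group ran from 1.28 ± 1.86 in CEFT to 5.15 ± 5.45 in TILD (SD, n = 6), so the spread between steers was wide in each group. Levels on day 0 reached down to 0 CPM. There the log2 change of a steer rests on the small count added before the logarithm, so large single changes and the group means that hold them are inexact. The adult globin genes HBA1 (log2 change 1.80 ± 0.56, FDR 0.00862) and HBA (log2 change 1.68 ± 0.49, FDR 0.00546) are near-identical, so reads may be shared between them. ALAS2, the erythroid enzyme that starts heme synthesis, was at 1.20 to 1128 CPM (median 29.9) on day 0 and 1.79 to 3739 CPM (median 78.2) on day 3 and was higher in 31 steers (log2 change 1.49 ± 0.38, FDR 0.00174). FECH, the last enzyme of the same pathway, which all cells use, was at 25.4 to 44.02 CPM (median 32.4) on day 0 and 25.999 to 41.8 CPM (median 32.2) on day 3, with a log2 change of -0.01 ± 0.03 (FDR 0.755). Without steer Tild3, 14 members rose. Red cell transcripts moved together with the hemoglobin share of the libraries, which is itself made of globin genes of this list. With that share as a covariate 4 members rose and 2 fell, but the loss of calls for those globin genes was fixed in advance. The rise of the hemoglobin share stood beside the change of every gene group described here. Since the share was also higher on day 3 in 31 of 42 steers, calls lost under the covariate cannot be assigned to red cells or to the day. The part of the share in those groups was examined only through that covariate. With it, 6279 genes were DEGs, 5990 of them among the 7552, and the counts of members that rose or fell became 8 and 1 in T cells, 1 and 11 in the glucocorticoid list, 2 and 13 in immediate early genes, 4 and 0 in platelets and 16 and 1 in sterol and fatty acid synthesis.

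**Figure D5:**
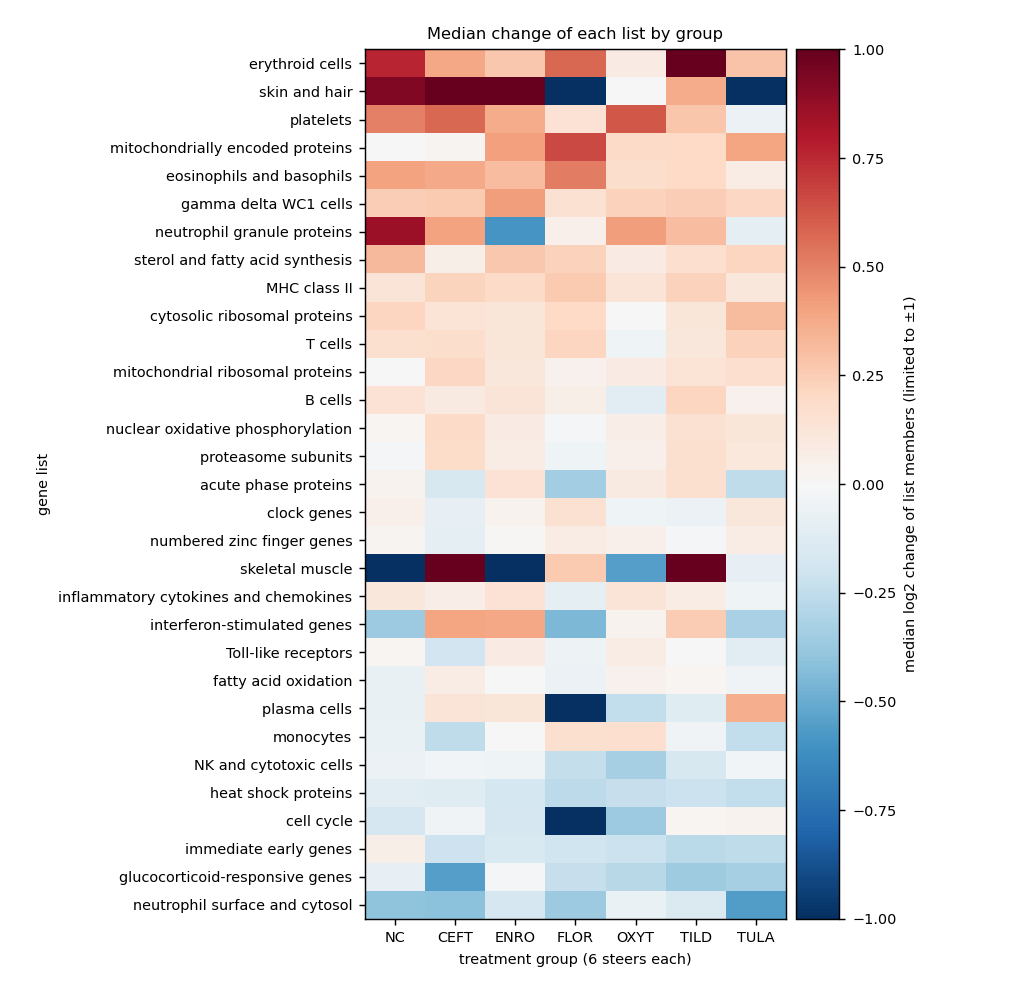
Median log2 change from day 0 to day 3 of the tested members of each gene list (rows) in each treatment group (columns, 6 steers each), in color limited to a range of 1 either way. Medians of MHC class II, sterol and fatty acid synthesis and gamma delta WC1 genes lay above 0 in all 7 groups and those of neutrophil surface and heat shock genes below 0, while medians of interferon-stimulated genes differed in sign between groups. Those of skin and hair and of skeletal muscle rest on members near 0 counts.

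Genes of the cell cycle fell in 22 of 34 members (64.7%, against 19.8%) and rose in 0, with a median log2 change of -0.21. MKI67, a marker of dividing cells, was at 73.8 to 631 CPM (median 150.3) on day 0 and 43.2 to 263 CPM (median 116) on day 3 and was lower in 34 of 42 steers (log2 change -0.44 ± 0.10, FDR 0.000427). CENPF, a kinetochore protein, was lower in 34 steers (log2 change -0.45 ± 0.09, FDR 7.05e-05). ASPM, of the spindle pole, changed by -0.42 ± 0.10 (FDR 0.000671), and the spindle checkpoint kinase TTK by -0.42 ± 0.09 (FDR 0.000347). The fall was largest in FLOR, but 0 genes passed edgeR's quasi-likelihood test of a difference between groups at an FDR of 0.05. The list median was -0.9987 in FLOR and between -0.36 in OXYT and 0.03 in TULA elsewhere. Without FLOR, in a fit with 6 fewer steers, 7 members fell and the median was -0.11. The replication genes MCM7 (log2 change 0.13 ± 0.19, FDR 0.647) and MCM3 (log2 change -0.03 ± 0.06, FDR 0.710) did not pass the test.

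Genes of protein synthesis and of mitochondria rose by small amounts in many members. Cytosolic ribosomal protein genes rose in 45 of 77 members (58.4%, against 19.8%) and fell in 0, with a median log2 change of 0.15. RPL28 was at 278 to 665 CPM (median 433) on day 0 and 294 to 932 CPM (median 517) on day 3 and was higher in 34 of 42 steers (log2 change 0.26 ± 0.04, FDR 1.21e-05). RPS9 (log2 change 0.24 ± 0.05, FDR 9.25e-05) and RPS14 (log2 change 0.34 ± 0.08, FDR 0.00115) rose as well, and ribosomal protein genes have many processed copies that can share reads. With no steer block 29 of these genes rose. Mitochondrial ribosomal protein genes rose in 40 of 77 members (51.9%, against 19.8%) and fell in 3, with a median of 0.12. MRPS6 rose by 0.31 ± 0.06 (FDR 9.64e-05), MRPL23 by 0.26 ± 0.04 (FDR 2.86e-06) and MRPL57 by 0.25 ± 0.04 (FDR 1.49e-06). MRPS18C went against them (log2 change -0.34 ± 0.08, FDR 0.000652). Nuclear genes of oxidative phosphorylation rose in 34 of 80 members (42.5%, against 19.8%) and fell in 3, with a median of 0.09. NDUFB10, a subunit of complex I, was at 57.98 to 114 CPM (median 73.9) on day 0 and 69.7 to 115 CPM (median 89.5) on day 3 and was higher in 38 steers (log2 change 0.25 ± 0.03, FDR 1.96e-08). ATP5F1A (log2 change 0.02 ± 0.03, FDR 0.557) and ATP5F1B (log2 change 0.02 ± 0.04, FDR 0.801), subunits of the head of ATP synthase, did not pass the test, beside the rise of their inhibitor ATP5IF1. Without CEFT, 21 genes of this list rose.

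Genes carried by mitochondrial DNA rose in 6 of 13 members (46.2%, against 19.8%) and fell in 0. ND2, a subunit of complex I, was at 568 to 2048 CPM (median 1188) on day 0 and 774 to 3199 CPM (median 1515) on day 3 and was higher in 33 of 42 steers (log2 change 0.31 ± 0.06, FDR 0.000149). ND1 (log2 change 0.32 ± 0.06, FDR 9.52e-05), ATP6 (log2 change 0.28 ± 0.08, FDR 0.00695) and ND4 (log2 change 0.27 ± 0.10, FDR 0.0271) rose as well. List medians were 0.66 in FLOR and 0.01 in NC. Without FLOR, 2 members rose, without TULA 3, and with the hemoglobin covariate 2. Proteasome subunit genes rose in 14 of 37 members (37.8%, against 19.8%) and fell in 4. PSMB9, a subunit of the immunoproteasome, was higher in 32 steers (log2 change 0.20 ± 0.04, FDR 0.000350), and PSMD9, a chaperone of proteasome assembly, in 35 (log2 change 0.16 ± 0.02, FDR 1.88e-07). PSMB10 rose (log2 change 0.34 ± 0.12, FDR 0.0266) and PSMB8 did not pass the test (log2 change 0.08 ± 0.12, FDR 0.635), the pair being further subunits of the immunoproteasome. Without CEFT or without TILD 9 proteasome genes rose, and with the hemoglobin covariate 8.

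Inflammatory and antiviral genes showed no shared direction. Of 38 interferon-stimulated genes, 1 rose (2.63%) and 1 fell, against 19.8% of all genes either way, with a median log2 change of 0.00. The antiviral GTPase gene MX2 was at 129 to 6026 CPM (median 522) on day 0 and 93.001 to 3115 CPM (median 589) on day 3. Its change was -0.06 ± 0.25 (FDR 0.899), and 21 steers were higher and 21 lower. SAMD9, an antiviral factor, was at 228 to 1204 CPM (median 508) on day 0 and 183 to 723 CPM (median 370.4) on day 3 and was lower in 38 of 42 steers (log2 change -0.53 ± 0.09, FDR 6.65e-06). IFI27 was at 3.37 to 259.6 CPM (median 28.03) on day 0 and 5.20 to 353 CPM (median 46.8) on day 3 and was higher in 31 steers (log2 change 0.53 ± 0.21, FDR 0.0425). List medians were 0.39 in CEFT and 0.38 in ENRO but -0.45 in FLOR and -0.37 in NC, so the average over groups stood between medians of opposite sign. None of these genes passed edgeR's quasi-likelihood test of a difference between groups.

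Of 21 cytokines and chemokines, 4 rose (19.05%) and 3 fell (14.3%), both shares below the 19.8% of all genes. IL1B, the central cytokine of inflammation, was at 114 to 501 CPM (median 278) on day 0 and 83.4 to 399 CPM (median 215) on day 3 and was lower in 34 of 42 steers (log2 change -0.34 ± 0.08, FDR 0.000850). TNFAIP3, an inhibitor of NF-kB signalling, was lower in 34 steers (log2 change -0.27 ± 0.05, FDR 3.83e-05). CXCL10, a chemokine induced by interferon, rose by 0.60 ± 0.23 (FDR 0.0361), and CXCL5, a neutrophil chemokine that platelets carry, by 0.60 ± 0.15 (FDR 0.00110). The interleukin-1 antagonist IL1RN (log2 change -0.06 ± 0.06, FDR 0.485) and the death ligand TNFSF10 (log2 change 0.10 ± 0.08, FDR 0.332) did not pass the test. IL1B, the decoy receptor gene IL1R2 and the co-receptor gene IL1RAP thus fell, and the change of the antagonist did not pass the test. Among 8 acute phase genes 2 fell (25%, against 19.8%). Haptoglobin, HP, which binds free hemoglobin and is made by neutrophils as well as the liver, was at 51.5 to 496 CPM (median 249) on day 0 and 43.6 to 542 CPM (median 144) on day 3 and was lower in 38 of 42 steers (log2 change -0.57 ± 0.10, FDR 1.38e-05). PTX3, a pentraxin stored in neutrophil granules, fell by 0.72 on the log2 scale (log2 change -0.72 ± 0.29, FDR 0.0414), and without steer Tild3 its change, -0.64 ± 0.28, did not pass the test (FDR 0.0696, with 0.000216 to 0.160 over the 19 alternatives). Of 9 Toll-like receptor genes, 1 fell (11.1%, against 19.8%), the lipopolysaccharide receptor TLR4 (log2 change -0.34 ± 0.08, FDR 0.000341), which was lower in 33 steers, and 1 rose, the flagellin receptor TLR5 (log2 change 0.30 ± 0.10, FDR 0.0117). TLR2 (log2 change -0.07 ± 0.05, FDR 0.305) and TLR6 (log2 change 0.04 ± 0.04, FDR 0.398) did not pass the test.

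Clock genes, whose level follows the hour of the day and, in leukocytes, cortisol, changed in both directions. Of 17 members, 6 rose (35.3%) and 7 fell (41.2%), against 19.8% either way among all genes. DBP, an output factor of the clock, was at 19.01 to 37.1 CPM (median 27.8) on day 0 and 23.3 to 51.6 CPM (median 33.96) on day 3. It was higher in 39 of 42 steers (log2 change 0.33 ± 0.03, FDR 2.37e-10). PER3, a core repressor, was at 6.85 to 48.7 CPM (median 17.1) on day 0 and 8.86 to 48.9 CPM (median 20.2) on day 3 and was higher in 34 steers (log2 change 0.29 ± 0.05, FDR 5.36e-06). NFIL3, which opposes DBP at the same sites, was lower in 33 steers (log2 change -0.42 ± 0.08, FDR 0.000121), and RORA, an activator of the loop, was lower in 31 (log2 change -0.30 ± 0.09, FDR 0.00486). DBP and its antagonist NFIL3 thus moved in opposite directions. With no steer block 2 clock genes rose and 5 fell. PER1, a glucocorticoid target and core repressor, was at 8.46 to 32.6 CPM (median 12.9) on day 0 and 9.84 to 52.3 CPM (median 13.4) on day 3, with a log2 change of 0.00 ± 0.09 (FDR 1). The hour at which each steer was bled was not used here, and its part in these changes was not tested.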

How the data were processed

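Whole blood of 42 steers was collected into RNA-preserving tubes and sequenced as stranded, paired-end mRNA libraries, and the 84 libraries of days 0 and 3 were analysed. The deposited counts were made by the authors, who trimmed reads with Trimmomatic (version 0.39), aligned them to the cattle assembly ARS-UCD1.3 with HISAT2 and assembled transcripts with StringTie (version 2.2.0, per the submitters' processing notes). Their counts per gene were then derived from transcript coverage and a read length of 150, so that they are whole-number estimates, genes that overlap or are near-identical can exchange reads, and a level can be lost where assembly placed it elsewhere. Counts were deposited without adjustment for lane.

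Groups were taken from the labels, and a steer's libraries were matched by its number. Genes with more than 0.2 CPM in at least 12 libraries of all sampling days were tested (19056 of 33282). Counts were scaled by TMM and fitted with edgeR (version 4.0.16) in R (version 4.3.3), with a term for each steer and a day 3 term for each group. The mean of the 7 terms, their difference (6 degrees of freedom) and each term alone were tested with the quasi-likelihood F test, and p-values were adjusted over all genes tested by the Benjamini-Hochberg method (FDR). The block follows from the design, since numbers mark animals. The deviations of a steer's libraries from their group means correlated by 0.245 to 0.365 at the lowest and the median steer, against a median of -0.0691 between different steers, and 83 of 84 libraries lay closest to the other library of the same animal. Lists of genes were read from that same fit, without a test of their own. Library measures were tested by sign-flip permutation (100000 draws, two-sided) and adjusted over the 5 measures. Code was tested on simulated counts with known changes.

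The genes named were, first, the 12 largest rises and falls among DEGs at a mean of at least 5 CPM with the same sign in all 7 groups and in at least 36 steers and, second, in each list, up to 4 DEGs with the largest change at a mean of at least 1 CPM and up to 2 genes with the highest level that did not pass the test. Genes with a difference between groups at an FDR of 0.05 were to be named as well, and there were 0. A few genes that these rules name are not reported here. The genes, lists and rules were chosen with earlier results of these data known, and they are not independent evidence. Alternatives covered scaling, the filter, DESeq2 (version 1.42.0), limma (version 3.58.1) voom, the likelihood ratio test, ComBat-seq of lanes (sva version 3.50.0), the block, the days fitted, covariates and libraries left out. Depth was 28.2 to 56.3 M counts, at which low genes are measured least precisely, and errors are those between steers. Each group is 6 steers in a single pen, so p-values measure the spread between steers and not between pens.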

Additional observations from a re-analysis of the deposited data

Results flagged for a closer look

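Of 84 sets of 6 steers or libraries examined for a single value far from the other 5 (Dixon's test at the 95% level), 14 held such a value. Chance gives about 1 in 20 for independent sets of normally distributed values. Here the same steers recur across sets and hemoglobin shares are skewed, so the count cannot be set against that rate. PDK4, whose change in log2 CPM was negative in most steers, was 0.82 in steer Enro10, against -2.04 to -1.15 in the other ENRO steers, and 1.42 in steer Flor6, against -1.04 to -0.35 in the other FLOR steers. It was -2.28 in steer Tula6, against -1.18 to -0.77 in the other TULA steers. Steer Enro10 also stood apart for HSPA6, with -3.86 against -0.85 to 0.17, and for the T-cell gene LAT, with -0.40 against 0.18 to 0.49. FOSB changed by -2.26 in steer Ceft3, against -0.75 to -0.09 in the other CEFT steers. MGAM changed by -2.19 in steer Flor10, against -1.10 to -0.48 in the other FLOR steers.

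The remaining values concern red cell transcripts and depth. HBM changed by -0.35 in steer NC15 (1.72 to 2.80 in the other NC steers), by 7.70 in steer Flor7 (-0.55 to 2.54 in the other FLOR steers) and by -1.79 in steer Tula6 (1.54 to 3.30 in the other TULA steers). Day 0 levels of HBM reached the floor of the counts, where a log2 change is least exact. The hemoglobin share was 25.5% in the day 3 library of steer Tild3, against 0.0544% to 4.38% in the other TILD steers, and 0.245% in the day 0 library of steer Tild5, against 0.00676% to 0.0935%. It was 4.04% in the day 0 library of steer Tula6, against 0.00890% to 1.04% in the other TULA steers. The day 0 library of steer Tild3 had 28.2 M counts, against 35.01 to 38.9 M in the other TILD steers. These values were kept in every test above, and the cause was not tested.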

How the results depend on the processing

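The number of DEGs was 7552 and lay between 7089 and 8091 with other scalings, no filter on low counts, DESeq2, voom, the likelihood ratio test, lane adjustment by ComBat-seq or as a term, or all sampling days in the fit. It was 6555 to 7414 without a group, 7489 without steer Tild3 and 7651 to 8182 in voom without each steer in turn. Without the replicate block, which pairs the libraries of a steer, 5069 genes were called, 4951 of them among the 7552, and 2331 rose in place of 3782. The block otherwise moved counts by more than 1.5 times only in single groups, to 1359 genes in CEFT, 125 in TILD, 52 in FLOR, 28 in TULA, 14 in ENRO, 5 in OXYT and 1 in NC, and in the lists named above. DESeq2 called 61 genes in NC, 1499 in ENRO, 2023 in TULA, 2128 in TILD and 577 in OXYT. The fit of all sampling days called 46 in NC. With the hemoglobin covariate 1 was called in NC and 479 in TILD. For the difference between groups, where the quasi-likelihood test called 0, DESeq2 called 149, the likelihood ratio test 47, the fit of all sampling days 37 and voom 19. Of 123 named DEGs, 97 kept their call without the block and 107 with the hemoglobin covariate, under which HBA1 (-0.060) and HBA (-0.011) changed sign, since the covariate contains them. The others kept 114 to 123, and the calls of BOLA-DOB, GZMB, CXCL10, PTX3, ATP5F1E, IFI27, GATA3, CCR7 and PSMB10 were lost in 5 or more settings. The part of depth was not tested. For the differences above the cause was not tested.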

Other observations

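Genes of tissues other than blood were read on the same samples. Of 13 skin and hair genes, 0 rose and 0 fell by edgeR's quasi-likelihood test, and at an unadjusted p below 0.05 0 were higher and 1 lower. Among all genes tested, 19.8% rose and 19.8% fell at an FDR of 0.05. DESeq2 called 1 of them, and voom 2. Most members had a median of 0 CPM on both days, so no fold is given for the list in single groups. KRT10, a keratin of the epidermis, was at 0.123 to 2.54 CPM (median 0.567) on day 0 and 0.208 to 12.2 CPM (median 0.661) on day 3, with a log2 change of 0.20 ± 0.19 (FDR 0.438). SFN, an epithelial adaptor, was at 0.110 to 4.16 CPM (median 0.487) on day 0 and 0.165 to 3.89 CPM (median 0.498) on day 3, with a log2 change of 0.36 ± 0.18 (FDR 0.108). Of 14 genes of skeletal muscle, 2 rose and 0 fell, against 19.8% of all genes either way. This list was thus not called more often than genes in general. TNNT3, a troponin of fast fibers, was at 0.908 to 6.94 CPM (median 3.36) on day 0 and 1.04 to 32.01 CPM (median 4.31) on day 3 and rose (log2 change 0.50 ± 0.12, FDR 0.00116). TNNI2, its partner, was at 1.87 to 50.5 CPM (median 6.07) on day 0 and 2.59 to 74.7 CPM (median 9.03) on day 3 and rose as well (log2 change 0.37 ± 0.07, FDR 2.64e-05). Several other members had a median of 0 CPM on both days, and no fold is given for the list. The source of these transcripts was not tested.

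Numbered zinc finger genes, most of which encode repressors that bind DNA, were counted as the largest list. Of 275 tested, 83 rose (30.2%) and 48 fell (17.5%), against 19.8% either way among all genes. ZNF326, which acts in splicing, was at 28.6 to 47.5 CPM (median 39.3) on day 0 and 19.9 to 34.5 CPM (median 28.1) on day 3 and was lower in 41 of 42 steers (log2 change -0.44 ± 0.03, FDR 9.06e-13). ZNF19 (log2 change 0.56 ± 0.10, FDR 1.85e-05), ZNF775 (log2 change 0.44 ± 0.05, FDR 6.01e-09) and ZNF502 (log2 change 0.44 ± 0.09, FDR 0.000201) rose. ZNF581 (log2 change -0.06 ± 0.06, FDR 0.476) and ZNF687 (log2 change -0.07 ± 0.04, FDR 0.210) did not pass the test.

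A few abundant genes were almost absent in some steers. COX3, carried by mitochondrial DNA, was at 11.2 CPM or less in 29 of 42 steers on day 0 and at 3451 CPM or more in the rest, and on day 3 at 9.84 CPM or less in 19 steers and 3427 CPM or more in the rest. RPL3 lay at 1.70 CPM or less in 2 steers on each day, and its next level was 54.5 CPM on day 0 and 198 CPM on day 3. TFRC, the transferrin receptor, was below 1 CPM in 3 steers on day 0 and 4 on day 3, and its next level was 12.6 CPM on day 0 and 2.67 CPM on day 3. The gap in CPM was widest for COX3. These 3 genes were chosen after their values were seen, none was a DEG, and the cause of these low levels was not tested.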
